A study of Homo sapiens with 24 samples.

Results

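10 genes of fatty acid synthesis and of its control by the sterol regulatory element-binding proteins (SREBPs) were followed by RNA-seq in HEK293T cells, a human embryonic kidney line. They were chosen by gene symbol from 58884 genes listed, with results of these same libraries in view, and all 10 were found in both batches and passed the filter on low values in both. The regulators are SREBF1, SREBF2, SCAP, INSIG1 and INSIG2, and the enzymes are FASN, ACACA, SCD, ACLY and FADS2. Because the choice followed from earlier results, the values of the 10 genes are given as a description, with no test.

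The RNA-seq samples form 5 groups of 2 libraries in 2 batches, each deposited as its own table, all from HEK293T cells growing exponentially in the same medium. Batch 1 holds cells labelled wild type (WT) and SETD2 knockout (KO), the latter with both endogenous SETD2 alleles disrupted. Batch 2 holds KO again, KO rescued with full-length SETD2 (SETD2 FL), and KO rescued with the construct labelled N3, the C-terminal segment of residues 1404 to 2564 (SETD2 C). SETD2 is the methyltransferase that places H3K36me3, a histone mark of transcribed gene bodies, and the study asked what its accumulation does to transcription. The constructs were transfected and driven by a CMV promoter, the KO libraries are labelled untreated, and no vector-transfected RNA library is among the samples used here. Transfection and construct therefore cannot be told apart in SETD2 FL against KO or SETD2 C against KO. SETD2 C against SETD2 FL compares transfected cells, but their SETD2 RNA totals differ, as given below. The kind of construct and its RNA level are therefore not separated there. Whether the KO line is 1 clone, and what share of the cells took up a construct, is not given in the sources used here.

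SREBP-1 (from SREBF1) and SREBP-2 (from SREBF2) are transcription factors made as precursors in the endoplasmic reticulum membrane. SCAP escorts them to the Golgi, where they are cut and released to the nucleus, and the INSIG proteins hold SCAP back when sterols are plentiful. SREBP-1 is best known for driving fatty acid synthesis and SREBP-2 for driving cholesterol synthesis and uptake. ACLY makes cytosolic acetyl-CoA from citrate, ACACA carboxylates it to malonyl-CoA, FASN builds palmitate, SCD puts the double bond into oleate and palmitoleate, and FADS2 is the delta-6 desaturase of polyunsaturated fatty acids. INSIG1, SREBF2, SREBF1, FASN and SCD are themselves known SREBP targets. RNA levels do not measure cleavage of the SREBP proteins.

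Promoter windows of 4 of the genes are shown because these genes had the values that the comparisons below turn on, the pair of INSIG genes among them. Each window runs from 250 bases before to 50 after a RefSeq start (GRCh38.p14), and 9 of the 10 genes matched, with 14 windows. FASN had no window. Capitals mark matches, on either strand, to TCACNCCAC (a sterol regulatory element), CACGTG (an E-box), CCAAT (an NF-Y box) and ACGTG (the core of the hypoxia response element, which lies within CACGTG). The windows are chr22:41832855-41833154 for SREBF2, chr7:155297628-155297927 for INSIG1, chr2:118088221-118088520 for INSIG2 and chr10:100346983-100347282 for SCD, all on the plus strand.
SREBF2: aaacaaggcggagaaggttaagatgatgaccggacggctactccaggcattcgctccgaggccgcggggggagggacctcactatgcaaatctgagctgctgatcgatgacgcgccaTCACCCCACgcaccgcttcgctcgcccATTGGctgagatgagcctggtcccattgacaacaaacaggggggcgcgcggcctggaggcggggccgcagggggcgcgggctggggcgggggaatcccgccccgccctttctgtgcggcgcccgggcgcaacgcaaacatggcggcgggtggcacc
INSIG1: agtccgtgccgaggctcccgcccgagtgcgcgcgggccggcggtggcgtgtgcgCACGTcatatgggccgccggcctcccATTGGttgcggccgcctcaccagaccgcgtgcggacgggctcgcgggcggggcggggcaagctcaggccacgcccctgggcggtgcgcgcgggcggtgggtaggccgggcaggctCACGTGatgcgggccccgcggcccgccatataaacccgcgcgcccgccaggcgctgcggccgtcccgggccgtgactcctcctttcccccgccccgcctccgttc
INSIG2: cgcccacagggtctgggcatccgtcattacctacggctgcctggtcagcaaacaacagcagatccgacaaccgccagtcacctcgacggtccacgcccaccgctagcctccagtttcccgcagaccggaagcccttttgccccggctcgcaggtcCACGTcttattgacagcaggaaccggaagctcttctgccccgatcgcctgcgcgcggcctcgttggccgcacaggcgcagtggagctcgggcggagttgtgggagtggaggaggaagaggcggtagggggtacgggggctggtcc
SCD: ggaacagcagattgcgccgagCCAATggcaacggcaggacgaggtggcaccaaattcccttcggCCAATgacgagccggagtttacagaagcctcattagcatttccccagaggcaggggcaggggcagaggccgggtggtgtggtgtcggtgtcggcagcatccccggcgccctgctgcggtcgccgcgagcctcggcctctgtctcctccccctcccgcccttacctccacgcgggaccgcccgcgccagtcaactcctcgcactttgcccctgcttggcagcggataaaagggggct
The SREBF2 window was the only one of the 14 to hold the sterol regulatory element, 133 bases before the start, a motif present in 1.13% of 35116 promoters of the same length. It also held a CCAAT box, found in 34.6% of promoters. The INSIG1 window held 1 E-box, found in 7.26% of promoters, together with 1 CCAAT box, and SCD held 2 CCAAT boxes. INSIG2 held none of these in the window shown. The ACGTG core, which 21.4% of promoters hold, matched in both INSIG genes, 3 times over both strands in the INSIG1 window (2 of them within its E-box), 1 time in the INSIG2 window shown and 2 times in the other INSIG2 window. Windows not shown matched too. The SCAP window held 1 E-box, with the core matching 2 times within it, and 1 ACACA window held the core 1 time. CCAAT boxes also matched in windows of FADS2, ACACA and ACLY. These are letter matches and not sites shown to be bound. Elements with other letters, or outside the windows, would be missed, so the lack of a match does not show that a gene lacks the element.

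All values below are TPM, an abundance scaled to transcript length and to the library total, which allows levels of different genes to be compared. SETD2 itself was 12.6 and 14.8 TPM in WT and 16.2 and 16.3 TPM in the libraries labelled KO of batch 1. The transcript total was thus not lower under the KO label, and since the place of the disruption is not given in the sources used here, this total does not check the label. In batch 2 SETD2 was 11.99 and 12.2 TPM in KO, 439 and 422 TPM in SETD2 FL, and 1329 and 1264 TPM in SETD2 C, so that both constructs were seen. The full gene model is used for both, and SETD2 C covers only part of it, so the levels of the 2 constructs were not compared.

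Replicate libraries correlated at r of 0.993 to 0.995 across genes. Mitochondrially encoded RNA took 23.2 and 14.1% of TPM in WT and 11.99 and 12.4% in KO of batch 1. In batch 2 it took 7.04 and 6.23% in KO, 10.95 and 7.79% in SETD2 FL, and 2.93 and 3.37% in SETD2 C. It thus moved with the SETD2 C group. TPM were also rescaled without these RNAs and SETD2, in place of the scaling between libraries used in the main fit. The members' median log2 difference between SETD2 C and KO was then -0.37, beside -0.46 in the main fit. The median of all genes tested moved the same way, to 0.13 from 0.046. The part of these RNAs in the results below was not otherwise tested. Of 9 HEK293T markers, all passed the filter in batch 2 and 5 rose in SETD2 C against KO by limma, beside 21.1% of all genes. Among them was NEFL (log2 fold change 1.22, limma adjusted p = 1.35e-05), while PAX2 and LHX1 were low, at no more than 1.8 TPM. Against SETD2 FL 7 of the markers rose and 1 fell, beside 21.4 and 16.8% of all genes. The 9 summed to 1118 and 1120.3 TPM in KO, 953 and 1079 TPM in SETD2 FL and 1587 and 1667 TPM in SETD2 C. Of 12 markers of liver, fat, blood and fibroblasts, 4 passed the filter and 3 rose against KO (APOA1, COL1A1 and COL3A1), while 2 rose against SETD2 FL. Those 12 summed to 9.15 and 9.42 TPM in KO, 10.8 and 11.5 TPM in SETD2 FL and 17.2 and 15.6 TPM in SETD2 C, with FABP1 and LEP at 0 in every library, and the part of either list in the results was not tested. In bulk RNA, fewer cells expressing a gene and less RNA per cell cannot be told apart.

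**Figure D1:**
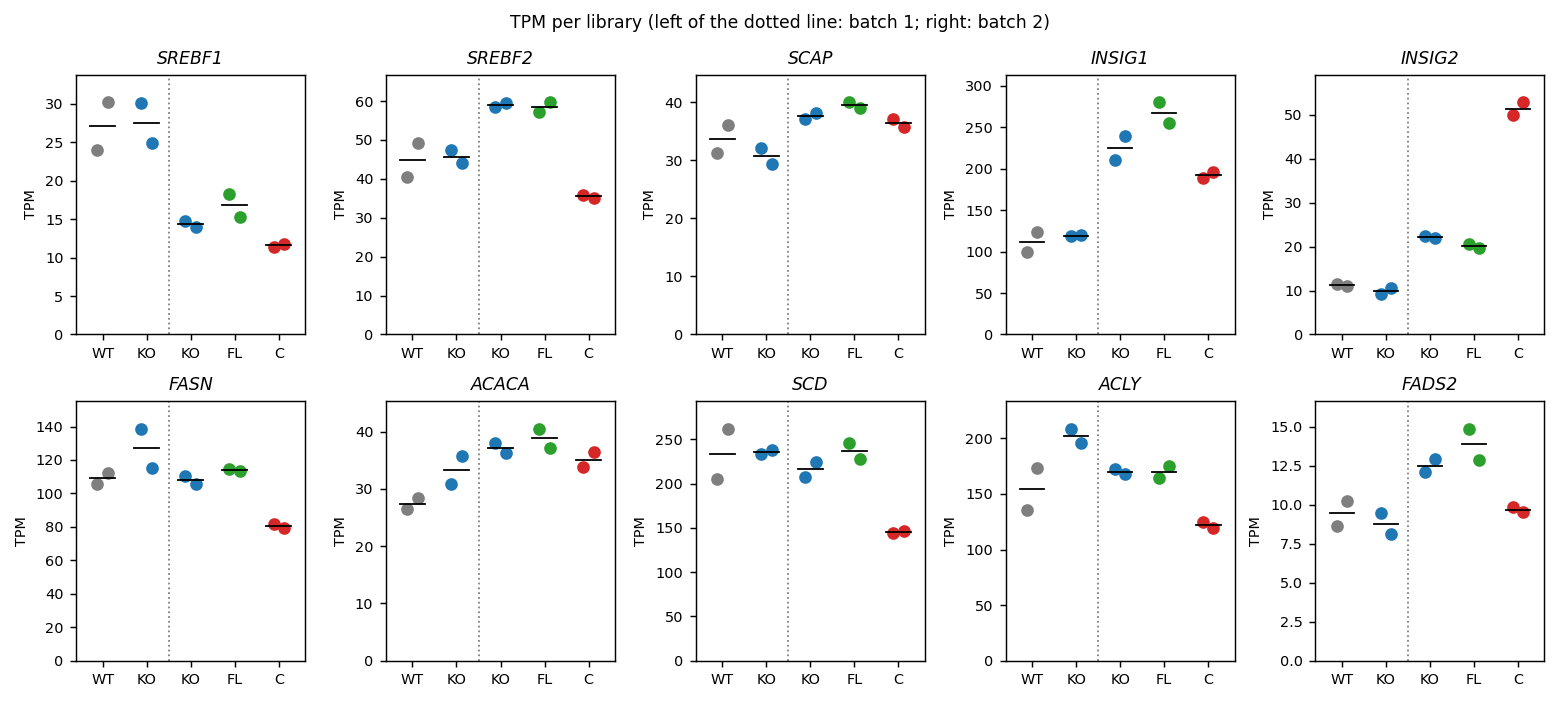
TPM of each of the 10 genes in every library, with the groups on the horizontal axis and a short line at each mean of 2 libraries; the dotted line divides batch 1 (WT, KO) from batch 2 (KO, SETD2 FL as FL, SETD2 C as C). INSIG2 stands at 50 and 52.9 TPM in SETD2 C against at most 22.4 TPM elsewhere, and SREBF2, FASN, SCD and ACLY are lower in SETD2 C than in the KO and SETD2 FL libraries beside it.

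Loss of SETD2 was compared with WT in batch 1, and the 10 genes differed little. The largest differences were in INSIG2, ACLY and SCAP, of which only ACLY was higher under the KO label. ACLY was 135 and 173 TPM in WT and 209 and 196 TPM in KO, a log2 difference of 0.27 (SE 0.08). The 2 groups did not overlap, although the WT libraries differed from each other by more than the KO libraries did.

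INSIG2, the smaller of the INSIG pair in RNA level, was 11.6 and 10.99 TPM in WT and 9.28 and 10.55 TPM in KO, a log2 difference of -0.30 (SE 0.13). SCAP was 31.2 and 36.1 TPM in WT and 32.1 and 29.3 TPM in KO, with a log2 difference of -0.26 (SE 0.08) after scaling. Unscaled, the SCAP groups overlap, and the scaled values do not. For SREBF1 the libraries gave 24.0 and 30.2 TPM in WT and 30.1 and 25.0 TPM in KO, which overlap. SREBF2 was 40.5 and 49.3 TPM in WT and 47.4 and 44.02 TPM in KO, with the unscaled KO values inside the WT range.

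FASN, ACACA, SCD, FADS2 and INSIG1 had log2 differences between -0.22 (FADS2) and 0.15 (ACACA). FASN was 106 and 112 TPM in WT against 139 and 115 TPM in KO, and its scaled groups overlapped. The scaled groups did not overlap for 6 of 10 members, against 56.9% of all genes, a share near the background.

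Rescue with full-length SETD2 was compared with KO in batch 2, and again the differences were small. INSIG1, which holds SCAP in the endoplasmic reticulum when sterols are plentiful, was 210.0 and 239 TPM in KO and 280.0 and 255 TPM in SETD2 FL, a log2 difference of 0.23 (SE 0.08). SREBF1 was 14.75 and 13.99 TPM in KO and 18.3 and 15.3 TPM in SETD2 FL, a log2 difference of 0.20 (SE 0.10). Both SETD2 FL libraries exceeded both KO libraries for these genes, but the spread within SETD2 FL was as large as the gap between the groups for SREBF1. INSIG2 was 22.4 and 21.9 TPM in KO and 20.7 and 19.6 TPM in SETD2 FL, a log2 difference of -0.16 (SE 0.07).

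The other members lay between -0.036 (SREBF2) and 0.12 (FADS2) on the log2 scale. SREBF2 was 58.6 and 59.6 TPM in KO and 57.2 and 59.7 TPM in SETD2 FL, and SCD was 207 and 225 TPM in KO and 246 and 228 TPM in SETD2 FL. ACLY was 172 and 168 TPM in KO and 164 and 175 TPM in SETD2 FL, so that the unscaled KO values lay inside the SETD2 FL range. The scaled groups did not overlap for 4 of 10 members, against 48.2% of all genes.

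Rescue with SETD2 C was compared with KO and with SETD2 FL in batch 2. In both comparisons INSIG2 was higher in SETD2 C and the other 9 members were lower. The sizes ran from a SCAP level 1.14-fold lower than KO to an SREBF2 level 1.83-fold lower than KO, and INSIG2 was 2.07-fold higher than KO. These comparisons share the SETD2 C libraries, and SETD2 C and SETD2 FL were each set against the same KO libraries, so their values are not independent of each other. Scaled groups did not overlap for 10 of 10 members in either comparison, beside 71.3% of all genes against KO and 72.3% against SETD2 FL. Since the members were chosen with these contrasts in view, nothing is read from this count.

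**Figure D2:**
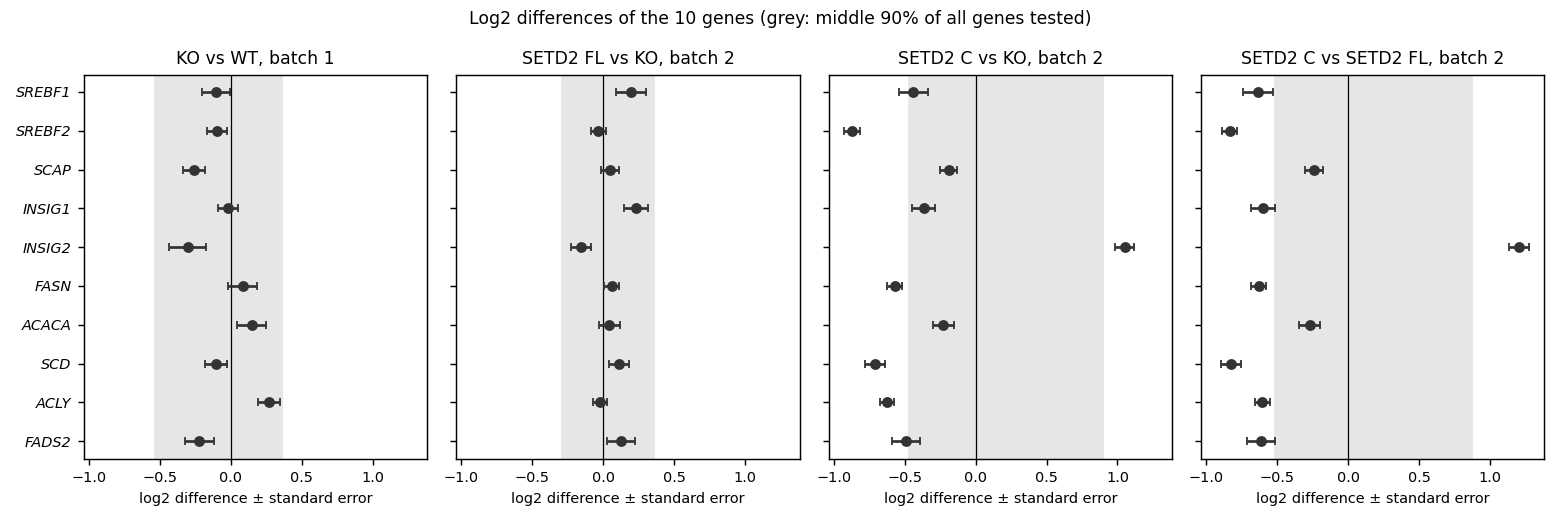
Log2 difference of each gene in the 4 comparisons, with bars of 1 standard error from the fit across all genes and a grey band over the middle 90% of all genes tested. The points lie near 0 for KO against WT and SETD2 FL against KO; in the SETD2 C comparisons INSIG2 is the only point to the right of 0, at 1.05 and 1.21.

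SREBF2 (chr22:41833105-41907306, plus strand), the source of SREBP-2, was 58.6 and 59.6 TPM in KO and 35.9 and 35.2 TPM in SETD2 C. The groups stood far apart compared with their spread (59.1 ± 0.71 TPM in KO and 35.5 ± 0.53 TPM in SETD2 C, SD, n = 2 each). The log2 difference was -0.87 (SE 0.05) against KO and -0.84 (SE 0.05) against SETD2 FL. Against KO this placed SREBF2 in the lowest 0.533% of all genes tested. An antisense gene, SREBF2-AS1, overlaps its exons, and whether the libraries kept strand is not given in the sources used here, so reads of the pair may be mixed.

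SREBF1 (chr17:17810399-17837002, minus strand), the source of SREBP-1, was 14.75 and 13.99 TPM in KO, 18.3 and 15.3 TPM in SETD2 FL, and 11.4 and 11.8 TPM in SETD2 C. SETD2 C was the lowest group and SETD2 FL the highest, without overlap. The log2 difference was -0.44 (SE 0.10) against KO and -0.64 (SE 0.10) against SETD2 FL. The gene overlaps exons of RAI1 on the other strand. SREBF1 and SREBF2 summed to 73.3 and 73.6 TPM in KO, 75.5 and 75.0 TPM in SETD2 FL, and 47.3 and 47.0 TPM in SETD2 C. The ratio of SREBF2 to SREBF1 was 3.97 and 4.26 in KO, 3.12 and 3.89 in SETD2 FL and 3.15 and 2.98 in SETD2 C, so SETD2 C lay below KO and overlapped SETD2 FL.

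SCAP (chr3:47413681-47477126, minus strand) was the member that differed least. It was 37.1 and 38.1 TPM in KO, 40.0 and 38.9 TPM in SETD2 FL, and 37.1 and 35.8 TPM in SETD2 C. The unscaled values of KO and SETD2 C nearly touch, and the scaled log2 difference was -0.19 (SE 0.06) against KO and -0.24 (SE 0.06) against SETD2 FL. With no scaling the difference from KO was -0.045.

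The INSIG genes differed in opposite directions. INSIG1 (chr7:155297776-155310235, plus strand) was 210.0 and 239 TPM in KO, 280.0 and 255 TPM in SETD2 FL, and 189 and 196 TPM in SETD2 C. SETD2 C was lowest and SETD2 FL highest, with log2 differences of -0.37 (SE 0.08) against KO and -0.60 (SE 0.08) against SETD2 FL. INSIG2 (chr2:118088452-118110997, plus strand) was 22.4 and 21.9 TPM in KO, 20.7 and 19.6 TPM in SETD2 FL, and 50 and 52.9 TPM in SETD2 C. Its log2 difference was 1.05 (SE 0.07) against KO and 1.21 (SE 0.07) against SETD2 FL, above 96.7 and 98.0% of all genes tested.

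The ratio of INSIG1 to INSIG2 RNA was 9.36 and 10.9 in KO, 13.6 and 13.0 in SETD2 FL, and 3.78 and 3.71 in SETD2 C. In batch 1 it was 8.56 and 11.2 in WT and 12.8 and 11.3 in KO, so the SETD2 C libraries had the lowest ratio of all 10. A ratio within a library does not depend on the scaling between libraries. The 2 INSIG genes summed to 232 and 261 TPM in KO and 301 and 275 TPM in SETD2 FL. In SETD2 C they summed to 239 and 248.9 TPM, inside the KO range in these unscaled values. Scaling divides by 0.966 and 0.957 in KO and by 1.06 and 1.07 in SETD2 C, which lowers SETD2 C against KO. INSIG1 was the larger of the pair in every library.

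**Figure D3:**
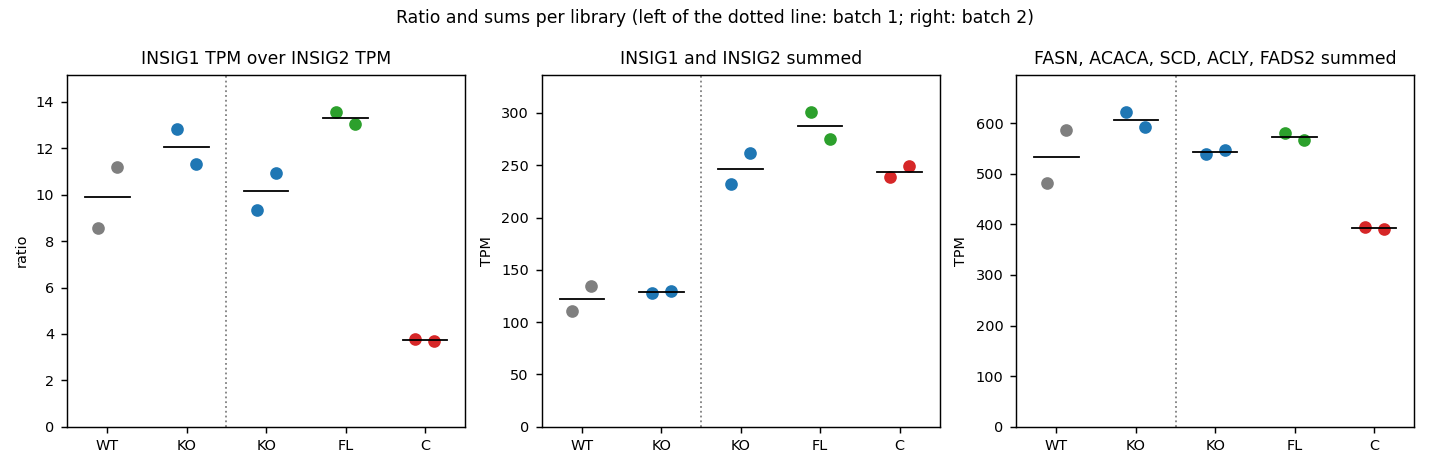
Left, INSIG1 TPM divided by INSIG2 TPM in each library; middle, their summed TPM; right, summed TPM of FASN, ACACA, SCD, ACLY and FADS2; short lines are means of 2 libraries and the dotted line divides the batches. The ratio is 3.78 and 3.71 in SETD2 C and at least 8.56 in every other library. The unscaled INSIG sum of SETD2 C lies inside the KO range of batch 2.

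The enzymes were all lower in SETD2 C. SCD (chr10:100347233-100364826, plus strand), the stearoyl-CoA desaturase, was 207 and 225 TPM in KO, 246 and 228 TPM in SETD2 FL, and 145 and 147 TPM in SETD2 C. KO and SETD2 FL lay close together and SETD2 C lay well below, with log2 differences of -0.71 (SE 0.07) against KO and -0.82 (SE 0.07) against SETD2 FL. ACLY (chr17:41866917-41930542, minus strand) was 124 and 119 TPM in SETD2 C against 172 and 168 TPM in KO, a log2 difference of -0.63 (SE 0.05). Against SETD2 FL the ACLY difference was -0.60 (SE 0.05), and again no library overlapped.

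FASN (chr17:82078338-82098294, minus strand), the fatty acid synthase, was 110.3 and 106 TPM in KO, 115 and 113 TPM in SETD2 FL, and 81.5 and 79.1 TPM in SETD2 C. The log2 difference was -0.57 (SE 0.05) against KO and -0.63 (SE 0.05) against SETD2 FL. KO and SETD2 FL differed by less than 10 TPM in any pair of libraries and SETD2 C stood apart from both. FADS2 (chr11:61792980-61867354, plus strand) was 12.1 and 12.9 TPM in KO, 14.9 and 12.9 TPM in SETD2 FL, and 9.84 and 9.55 TPM in SETD2 C. Its log2 difference was -0.49 (SE 0.10) against KO and -0.61 (SE 0.10) against SETD2 FL. FADS2 overlaps exons of FEN1 and FADS1, so its reads may be split with theirs.

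ACACA (chr17:37084992-37406836, minus strand), the enzyme that commits acetyl-CoA to fatty acids, differed least among the enzymes. It was 38.1 and 36.2 TPM in KO, 40.5 and 37.2 TPM in SETD2 FL, and 33.8 and 36.4 TPM in SETD2 C, and the unscaled KO and SETD2 C values overlap. The scaled log2 difference was -0.23 (SE 0.08) against KO and -0.27 (SE 0.08) against SETD2 FL, and it was -0.081 against KO with no scaling. The 5 enzymes summed to 540 and 548 TPM in KO, 581 and 566 TPM in SETD2 FL, and 394 and 391 TPM in SETD2 C.

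The median log2 difference of the 10 members was -0.10 for KO against WT, 0.05 for SETD2 FL against KO, -0.46 for SETD2 C against KO and -0.61 for SETD2 C against SETD2 FL. Over all genes tested the medians were -0.0058, 0.0056, 0.046 and 0.042 in the same order. With no scaling the median of all genes against KO moved to 0.18 in SETD2 C, and the members' median to -0.32. All 10 members kept their direction in both SETD2 C comparisons under 13 alternatives each.

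The wider pathway was described with 7 lists of other lipid genes, 141 in all, of which 130 passed the filter in batch 2 and 129 in batch 1. In SETD2 C against KO, 18 rose and 42 fell by limma with Benjamini-Hochberg adjustment over all genes (adjusted p of at most 0.05), and the rest did not pass the test. Of all 15933 genes tested, 21.1% rose and 15.1% fell. In SETD2 C against SETD2 FL, 17 rose and 47 fell, where 21.4% of all genes rose and 16.8% fell. With a fold change of at least 2 added, 2 rose and 7 fell against KO, beside 3.75 and 0.314% of all genes, and 2 rose and 7 fell against SETD2 FL, beside 3.36 and 0.421%. The counts of each list below stand against these shares. With no scaling the counts became 31 higher and 33 lower against KO, beside 5509 and 1117 of all genes. Against SETD2 FL they became 34 and 34, beside 5192 and 1508 of all genes. Scaling TPM without mitochondrially encoded genes and SETD2 gave 28 higher and 35 lower against KO, beside 4578 and 1473 of all genes. The balance of directions thus depends on the scaling, in these lists and over all genes. List counts given below with no scaling stand against the counts of all genes with no scaling.

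Genes of cholesterol synthesis and uptake, the best known targets of SREBP-2, had the lowest median of the 7 lists in both comparisons. Against KO, 17 of 22 fell and 1 rose, with a median log2 difference of -0.68, and against SETD2 FL 19 fell and 0 rose, with a median of -0.82. Against SETD2 FL, 20 of the 22 had an unadjusted p under 0.05, and 2 of the 22 had positive differences. The 19 that fell against SETD2 FL became 17 with no scaling and under quantile normalization. The median against SETD2 FL became -0.68 without SETD2 FL replicate 3 and -0.96 without SETD2 FL replicate 4. The 17 that fell against KO stayed at 17 in count with no scaling, under quantile normalization, and with any KO or SETD2 C library left out. SQLE, squalene epoxidase, was 181 and 202 TPM in KO and 65.9 and 66.1 TPM in SETD2 C (log2 fold change -1.67, limma adjusted p = 1.4e-05). IDI1, the isopentenyl diphosphate isomerase, fell by 1.40 on the log2 scale against KO, and HMGCS1, which makes HMG-CoA, fell by 1.34 against SETD2 FL. The gene that rose against KO was SC5D, a desaturase late in cholesterol synthesis (86.0 and 99.6 TPM in KO, 146 and 154 TPM in SETD2 C).

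Among 26 other fatty acid synthesis genes tested, 12 fell and 3 rose against KO, with a median of -0.21, and 11 fell and 2 rose against SETD2 FL. Those that fell against KO included MID1IP1, a partner of acetyl-CoA carboxylase (log2 fold change -0.52), the desaturase FADS1 (-0.44) and the mitochondrial citrate carrier SLC25A1 (-0.44). ACSL6 (0.67), FADS3 (0.43) and OXSM (0.39), the last a mitochondrial ketoacyl synthase, rose. Against SETD2 FL the largest decreases were FADS1 (-0.67), ACSL3 (-0.65) and the elongase ELOVL1 (-0.59). ACSL6 (0.51) and OXSM (0.26) rose against SETD2 FL and were not called without SETD2 C replicate 2 or without SETD2 FL replicate 4. The count that fell against KO was 8 with no scaling and 7 without KO replicate 4 or without SETD2 C replicate 2.

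Of 14 genes of SREBP processing and turnover, 1 rose and 2 fell against KO, with a median of -0.029. RNF145, a ubiquitin ligase of the sterol pathway, rose (31.0 and 31.4 TPM in KO, 41.8 and 46.9 TPM in SETD2 C), TRIM27 fell (log2 fold change -0.48) and ERLIN1 fell (-0.24), the last losing its call in 9 of 13 alternatives. The proteases that cut SREBPs, MBTPS1 (0.012) and MBTPS2 (-0.012), did not pass the test. Against SETD2 FL, RNF145 rose (0.37) and TRIM27 (-0.37), PGRMC1 (-0.28) and ERLIN2 (-0.28) fell. RNF145 was not called in either comparison without SETD2 C replicate 2, and only TRIM27 of the 3 that fell against SETD2 FL was called without either SETD2 C library or without SETD2 FL replicate 3.

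Of 17 partner and lipogenic transcription factors, 4 fell and 0 rose against KO, and 5 had an unadjusted p under 0.05. These were PPARGC1B, a coactivator of SREBPs (log2 fold change -0.79), the oxysterol receptors NR1H3 (-0.65) and NR1H2 (-0.51), and MLX (-0.43), and all 4 fell against SETD2 FL too, where LPIN1 (0.27) and RXRB (0.27) rose but were not called without either SETD2 C library or without SETD2 FL replicate 3. With no scaling, 4 rose and 4 fell against KO. Of 6 listed targets of the oxysterol receptors, which are the LXRs, 4 rose and 1 fell against KO. The 10 members are left out of the lists, so a member that is also an LXR target is not counted here, and 9 members were lower in SETD2 C. APOE (log2 fold change 0.91), the ubiquitin ligase MYLIP (0.67) and the cholesterol exporter ABCG1 (0.62) rose, and LPCAT3 (-0.46) fell. Against SETD2 FL, MYLIP (0.72), ABCG1 (0.52) and SMPDL3A (0.31) rose and LPCAT3 (-0.54) fell, and without either SETD2 C library or without SETD2 FL replicate 4 only 1 rose.

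Among glycerolipid and lipid droplet genes HILPDA and PLIN2 had by far the largest differences in SETD2 C. Of 23 glycerolipid and lipid droplet genes, 5 rose and 2 fell against KO, and 4 rose and 6 fell against SETD2 FL, and the number that rose was near the share of all genes in both comparisons. HILPDA, a lipid droplet protein that inhibits lipolysis, was 56.8 and 70.2 TPM in KO, 56.6 and 55.3 TPM in SETD2 FL, and 647 and 685 TPM in SETD2 C (log2 fold change 3.24 against KO, limma adjusted p = 2.71e-06). PLIN2, a lipid droplet coat protein, was 16.2 and 15.5 TPM in KO and 52.1 and 53.7 TPM in SETD2 C (log2 fold change 1.56, limma adjusted p = 6.9e-06). The others of the 7 lay between -0.36 (PNPLA3) and 0.74 (MGLL, a monoacylglycerol lipase), AGPAT3 being -0.22. PNPLA3 and AGPAT3 lost their calls with no scaling, and MGLL lost its call under quantile normalization. With no scaling 9 rose and 0 fell against KO, and without SETD2 C replicate 1 or KO replicate 2 the count that rose was 3, with 0 falling. Against SETD2 FL the genes that fell included PNPLA3 (-0.36), BSCL2 (-0.33) and AGPAT2 (-0.29), and without SETD2 C replicate 2 none of the 6 kept its call. That count was 1 without SETD2 FL replicate 3, and 3 without SETD2 C replicate 1 or without SETD2 FL replicate 4.

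Genes of fatty acid beta oxidation passed the test in both directions, in numbers near the shares of all genes given above. Of 22 genes, 4 rose and 4 fell against KO, with a median of -0.0051, and 5 rose and 3 fell against SETD2 FL. The carnitine palmitoyltransferases CPT1C (log2 fold change 0.61) and CPT1A (0.57) and the very long chain dehydrogenase ACADVL (0.42) rose against KO. The matrix enzymes ECI1 (-0.67), HADH (-0.60) and ECI2 (-0.31) fell. Against SETD2 FL, CPT1C (0.72), CPT1A (0.52) and ACADVL (0.50) rose, and ECI1 (-0.47), HADH (-0.39) and CPT2 (-0.30) fell.

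**Figure D4:**
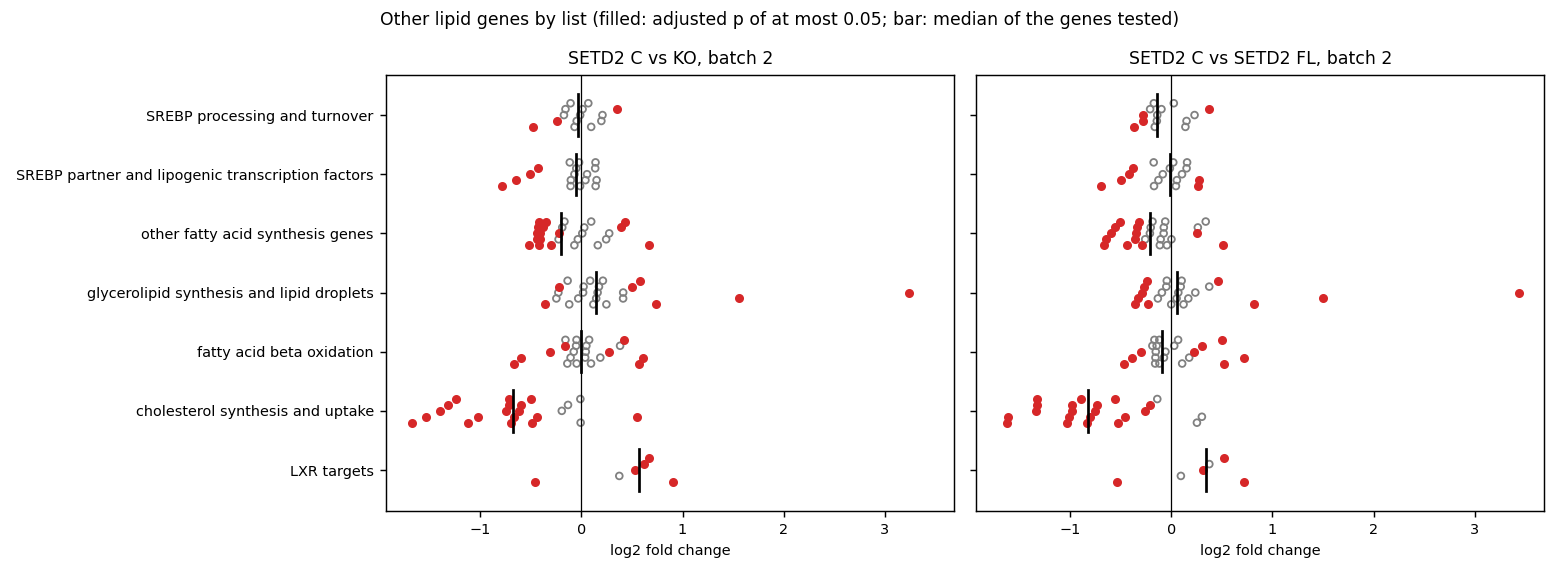
Log2 fold change of each gene of the 7 lists in SETD2 C against KO (left) and against SETD2 FL (right); filled points passed an adjusted p of 0.05 by limma, open points did not, and bars are list medians. The cholesterol list sits lowest, at medians of -0.68 and -0.82, and HILPDA is the point beyond 3.

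In the other comparisons few of these genes passed the test. In SETD2 FL against KO, 0 of 130 passed by limma, with 24 at an unadjusted p under 0.05, where 0.176% of all genes rose, 0.0314% fell and 15.9% had such a p. In KO against WT, 0 of 129 rose and 5 fell, with 37 at an unadjusted p under 0.05. Of all 14746 genes tested there, 1.32% rose, 3.17% fell and 24.9% had such a p, so these counts were near the background. DECR1, a mitochondrial reductase for unsaturated fatty acids, was 15.4 and 13.9 TPM in WT and 0.16 and 0.51 TPM in KO (log2 fold change -4.30, limma adjusted p = 0.000482). The 2 KO libraries of batch 2 held 0.00 and 0.07 TPM of DECR1, so the low level was shared by KO of both batches. Among the 22 beta oxidation genes tested in batch 2, the largest log2 difference from KO was 0.44 in SETD2 FL and 0.61 in SETD2 C. A return of DECR1 to its WT level in both libraries of a construct would have exceeded these. Whether its low level follows from SETD2 loss or from another trait of the KO line was not tested. TM7SF2 (-0.87), ELOVL7 (-0.68), LPIN3 (-0.49) and CPT1B (-0.48) also fell, and each lost its call in 4 to 8 of 13 alternatives.

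KO was measured in both batches, which gives the members' levels in 2 sets of the same genotype. SREBF1 was 30.1 and 25.0 TPM in KO of batch 1 and 14.75 and 13.99 TPM in KO of batch 2. INSIG1 was 119 and 119 TPM against 210.0 and 239 TPM, and INSIG2 9.28 and 10.55 TPM against 22.4 and 21.9 TPM. FASN, SCD and ACLY were closer, with SCD at 234 and 238 TPM against 207 and 225 TPM. The tables of the batches were made separately, so these gaps were not tested, and no test compared WT of batch 1 with SETD2 FL or SETD2 C. Statements above that span all 10 libraries are descriptions and include these gaps between batches.

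For 5 members the genes with the most similar pattern over the 10 libraries were listed, by Pearson r of log2 values centred on KO of each batch, among 7435 genes. SCD was most like DHCR7 (r = 0.996), a reductase at the end of cholesterol synthesis, then KDELC2 (0.989) and TMEM97 (0.989). SREBF2 was most like ADSL (0.996), GTPBP6 (0.994) and GNAI2 (0.992), and INSIG1 most like LBR (0.993), SLC39A14 (0.990) and TMEM43 (0.989). FASN was most like RNF126 (0.989), SEC16A (0.986) and IPO13 (0.984), and SREBF1 most like COQ8B (0.974), ESYT2 (0.960) and SRPRA (0.959). These correlations are descriptions over libraries that share batches, groups and depth, and the SETD2 C pair is far from the rest, so many genes reach high values.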

How the data were processed

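RNA-seq was analysed in 10 libraries of HEK293T cells. The authors aligned paired reads to hg38 with Ensembl 96 gene models using STAR 2.6.1c and made TPM with RSEM 1.3.0. The deposited values are TPM per gene in 2 tables, replicates kept separate, with no counts, so depth is unknown and no counting interval is given. Ribosomal RNA depletion and poly(A) enrichment were used; strandedness is not given in the sources used here. Because TPM sum to the same total in every library, a large change in abundant RNA, such as mitochondrially encoded RNA, shifts all other values.

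TPM were scaled by the median ratio over protein-coding and lncRNA genes (GENCODE 44 types, matched for 58472 genes by identifier and 31 by symbol, 381 unmatched) with TPM of at least 1 in every library of the batch. Genes of these types reaching 0.5 TPM in 2 or more libraries of a batch were modelled as log2(scaled TPM + 0.5) and tested by limma 3.58.1 in R 4.3.3 (eBayes with trend), all groups of a batch in 1 fit, with Benjamini-Hochberg adjustment over all genes tested and calls at an adjusted p of at most 0.05. Fold changes on this scale understate the change of low genes. TPM are printed unscaled, and log2 differences are from scaled values.

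The test was checked on simulated data. The members and the lists were chosen with earlier results of these data known. Named pathway genes were, in each list and comparison, up to 3 higher and 3 lower genes with the largest change among those called. A gene that met this rule is not reported here. MBTPS1, MBTPS2 and MLX, outside that rule, were named after their values were seen. Labels do not say that replicates came from separate cultures, so p-values measure only the spread between these libraries, which may be technical. H3K36me3 ChIP samples were not analysed here.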

Additional observations from a re-analysis of the deposited data

How the results depend on the processing

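Each result was recomputed under other pseudocounts, filters, scalings, without the trend, with only the groups compared, and with each library left out, where the lone library of a group is assumed to vary like the others. The direction of all 10 members held in both SETD2 C comparisons. In KO against WT and in SETD2 FL against KO some members changed sign, all from differences near 0. The pathway genes called in KO against WT numbered 5, and became 1 with no filter beyond a TPM above 0, 3 with no scaling, 3 without the trend, and 1 to 9 with 1 library left out (9 without WT replicate 2, and 1 without KO replicate 2); the cause was not tested. In SETD2 FL against KO the count stayed at 0. It ran from 49 to 64 against 60 in SETD2 C against KO, and from 43 to 70 against 64 in SETD2 C against SETD2 FL. Over all genes, those called higher in SETD2 C against KO numbered 3359, and 1734 without SETD2 C replicate 2. Calls of single named genes were lost in 35 of 403 recomputations against KO and 62 of 429 against SETD2 FL. Leaving out SETD2 C replicate 2 cost the most calls against SETD2 FL, 13, among them RNF145, ABCG1, CPT2 and ACSL6, and leaving out SETD2 C replicate 1 the most against KO, 6, among them ABCG1, FADS3 and MGLL.

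With the replicate block in batch 1, where WT and KO share the numbers 1 and 2, 12 pathway genes were called (2 higher, 10 lower), and 442 higher and 827 lower over all genes, against 194 and 467 without it. The deviations of the same-numbered libraries correlated at r = 0.147 over 14746 genes, and the labels tie nothing but the number, so the pairing was not used. In batch 2 no group pair compared shares 2 numbers, so no block could be fitted there. The depth of the libraries is unknown, and 2 libraries a group limit the precision of every value.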
